A study of Mus musculus with 2 samples.

Results

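The 8 genes described here encode peptide hormones, or proteins that accompany them, which the thymus shows to developing T cells. They are Ins2, Sst, Npy, Oxt, Nts, Calca, Resp18 and Crhbp, a list taken by symbol and chosen with earlier results of these data known. All 8 were found among the 31053 genes that both count matrices list. Not all are hormones: Resp18 is a protein of endocrine secretory cells and Crhbp binds corticotropin-releasing hormone. The study sequenced RNA of single medullary thymic epithelial cells (mTECs) of mice, sorted as EPCAM-positive and Ly51-negative. There were 2 libraries made with the 10x Genomics 3' kit, 1 per genotype. One was labelled Foxn1-Cre(+) Ikaros+/fl and the other Foxn1-Cre(+) Ikarosfl/fl, called here the library labelled +/fl and that labelled fl/fl. Both carry Cre under Foxn1, a gene of thymic epithelium, and they differ in whether 1 or both alleles of Ikaros (gene Ikzf1), a zinc-finger transcription factor of lymphocytes also present in mTECs, are floxed. The labels give neither the age nor the number of mice per library.

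In their home tissues these peptides are made as prohormones, cut by convertases and stored in dense-core granules until a signal releases them. In the thymus the same genes are read as antigens of other tissues. Mature mTECs that carry Aire, the autoimmune regulator, transcribe many such genes, each in a small fraction of cells, and T cells that bind the peptides strongly are deleted or diverted. Other mTECs take on the gene programme of a peripheral cell type, and the neuroendocrine-like ones among them carry granule proteins such as chromogranin A (Chga).

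The members lie on 7 chromosomes, with coordinates from the GENCODE M21 annotation of GRCm38 by Ensembl identifier. Insulin 2 (Ins2, ENSMUSG00000000215) is annotated at chr7:142678656-142743381 and the calcitonin and calcitonin gene-related peptide gene (Calca, ENSMUSG00000030669) at chr7:114631478-114636357, both on the minus strand. Somatostatin (Sst) is at chr16:23889573-23890958, neuropeptide Y (Npy) at chr6:49822710-49829507 and oxytocin (Oxt) at chr2:130576173-130577054. Neurotensin (Nts) is at chr10:102481756-102490486, Resp18 at chr1:75272199-75278415 and Crhbp at chr13:95431371-95444924. An antisense gene, Gm28902, overlaps Resp18, and whether counting used strand is not given in the sources used here. The other 7 overlap 0 genes in that annotation.

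RefSeq start-site sequences (GRCm38.p6) were at hand for 7 members, all but Ins2. The 250 bases before each start were searched for the cAMP response element TGACGTCA and for its first 5 bases, TGACG, on both strands, and for the TATA box TATAAA on the gene's strand. The TATA box letters were in 0 of the 7 members and in 7.59% of all promoters. The short motif is contained in the long one. A stretch is shown for each of the 4 members with a match. Each is 30 bases long, 5′ to 3′ on the gene's strand, with the motif in capitals.
Sst, chr16:23890874-23890903, minus strand: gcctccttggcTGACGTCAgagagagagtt
Calca, chr7:114636406-114636435, minus strand: ggaagcacagaggTGACGcaatctgtctgg
Crhbp, chr13:95444879-95444908, minus strand: agagctggaccctCGTCAttgccacgcatt
Nts, chr10:102490568-102490597, minus strand: aattagggaagatCGTCActttccatcaag
The long motif was in 1 member, Sst, and in 1.55% of the 32851 promoters. The short motif was in 4 of the 7 members and in 17.8% of all promoters. In Sst, Calca and Crhbp it began 48, 65 and 64 bases before the start, and in Nts 166 bases before it. These are RefSeq starts: the start of Sst lies 114 bases, that of Crhbp 93 and that of Nts 68 bases downstream of the start in the annotation above, so the Sst and Crhbp stretches fall inside those annotated genes. A match describes these letters only, and binding was not measured.

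The library labelled +/fl gave 4891 cells with 66675011 unique molecular identifiers (UMIs, counted RNA molecules), a median of 10731 per cell, and the library labelled fl/fl 7669 cells with 80897462 UMIs, a median of 8187. In the submitters' matrix names the genotypes are swapped, so every direction here holds between libraries as labelled. Ikzf1 stood at 64.5 and 37.7 CPM (UMIs scaled to 1000000 per library or cell class), but 3' reads may lie outside the floxed part and so do not check the labels. The epithelial sort marker Epcam had 1162 and 1143 CPM, and 7.14% and 3.59% of cells were myeloid or dendritic. The X-inactivation RNA Xist stood at 1317 and 0.902 CPM and the Y-linked Ddx3y at 0 and 64.5 CPM, so genotype and sex cannot be told apart. The libraries shared 25 barcodes, 10 of them among kept cells. As each genotype is 1 library, differences lack a check between replicates, no test was made, and every interval is at 95% and covers counting error only.

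The first comparison asked whether the 2 libraries differed in these antigens. All 8 members had a higher level in the library labelled fl/fl, and 7 of 8 were higher by 2-fold or more with 1 CPM added to both levels. Of the 18392 genes with at least 50 UMIs, 10.2% were 2-fold or more higher in that library and 53.6% were higher at all, and 2.43% were 2-fold or more lower, as 0 of 8 members were. The median log2 ratio was 0.04 over these genes and 2.42 over the members. As the members were chosen with earlier results of these data known, these values describe them and are no independent check. Fewer cells with a gene and less RNA per cell both lower such a sum, and the shares of cells below bear on that.

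Among the hormones of pancreas, gut and brain, Ins2 in the library labelled +/fl stood at 3.12 CPM (2.71 to 3.57), and in that labelled fl/fl at 31.7 CPM (30.5 to 33.0), a 10.2-fold ratio (8.83 to 11.8). Sst, the inhibitor of hormone release from islets, stomach and pituitary, had 2.56 and 24.1 CPM, and Npy, an appetite-promoting transmitter of brain and sympathetic nerves, had 3.97 and 29.1 CPM. Their log2 ratios were 2.82 and 2.60. These 3 members were the rarest in the library labelled +/fl by UMIs, with 208, 171 and 265 in all. Without the highest cell of each library the log2 ratio of Ins2 was 4.09 and that of Npy 3.77. Nts, a peptide of gut and brain, had 25.6 CPM (24.4 to 26.9) and 125 CPM (122 to 127), a log2 ratio of 2.24. Oxt, the hypothalamic hormone of birth and milk release, had 28.6 and 72.2 CPM, a log2 ratio of 1.31. Without the 10 highest cells of each library, Oxt came to 3.0 and Nts to 3.12.

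Calca was the member closest to level. It had 187 CPM (184 to 191) and 249 CPM (245 to 252), a log2 ratio of 0.41, and was the 1 member under 2-fold. Of the accompanying proteins, Resp18 had 76.0 and 238 CPM with a log2 ratio of 1.63, and Crhbp had 7.42 and 51.7 CPM with a log2 ratio of 2.65. Aire itself had 149 and 327 CPM, and its part in these ratios was not tested. The insulin paralogue Ins1 had 0 UMIs and 38 UMIs. Of the 19 cells with Ins1 in the library labelled fl/fl, 4 also had Ins2. Reads shared between the 2 insulin genes, or between Calca and its paralogue Calcb (79.5 and 302 CPM), cannot be placed with certainty.

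**Figure D1:**
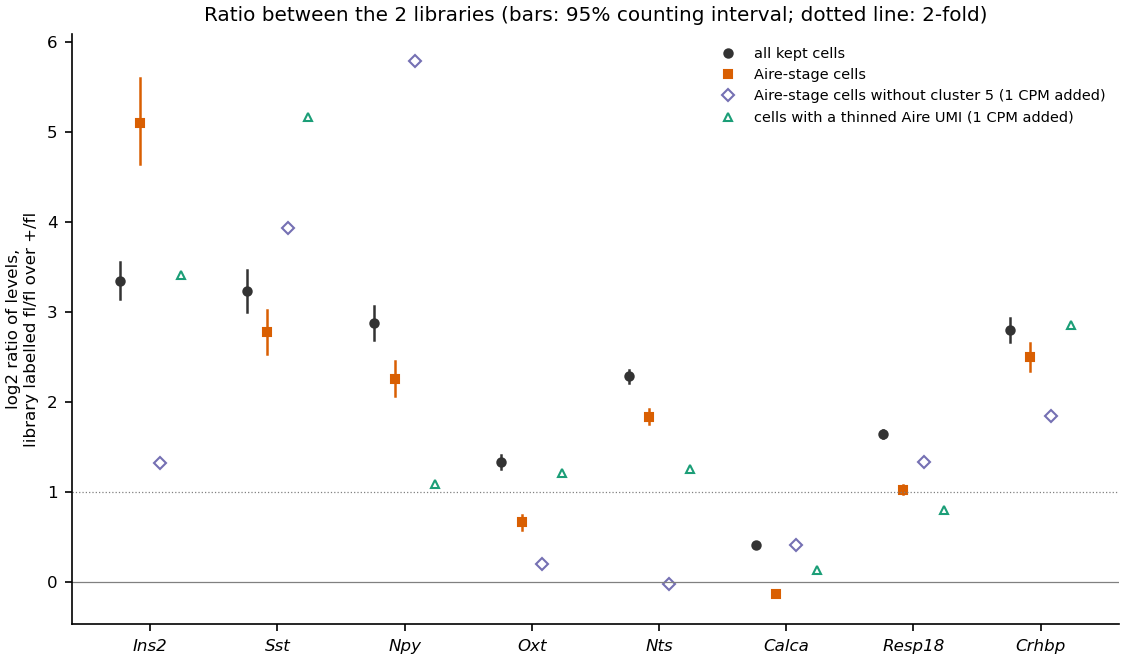
Log2 ratio of the level of each hormone gene for the library labelled fl/fl relative to that labelled +/fl, over all kept cells (circles) and Aire-stage cells (squares) with 95% counting intervals, and as values alone for Aire-stage cells without cluster 5 (diamonds) and for cells with an Aire UMI (triangles), both with 1 CPM added. All 8 circles lie above 0, and Calca is the 1 circle under the dotted 2-fold line.

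Shares of cells were compared after every cell was thinned to 2000 UMIs, which left 4567 and 6872 cells. Resp18 reached 6.48% (5.78 to 7.23) under the label +/fl and 15.5% (14.6 to 16.4) under the label fl/fl. Calca was in 8.71% and 11.3% of cells. The other 6 members were in 0.109% to 1.07% of cells of the first library and 1.0% to 5.01% of the second. For 7 of 8 the share was at least 2-fold higher in the library labelled fl/fl, which 13.9% of 15879 genes reached. The ratio of shares was 12.2 for Npy (5.05 to 38.6), 10.3 for Ins2 (4.81 to 26.1), 6.18 for Crhbp and 5.73 for Sst. It was 4.56 for Nts, 3.05 for Oxt, 2.39 for Resp18 and 1.30 for Calca (1.15 to 1.47). The members thus differed in how many cells held them as well as in summed UMIs. Without thinning, the shares ran from 0.245% to 19.5% in the library labelled +/fl and from 2.13% to 29.7% in that labelled fl/fl.

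These shares were read against cells of classes other than mTECs. In myeloid and dendritic cells of the library labelled fl/fl (215 thinned cells, median depth 6826 UMIs before thinning), 7 members were found in 0.465% to 4.19% of cells. Npy was in 0 of those 215 cells, which allows a share of up to 1.40% after thinning; unthinned, 9 of 275 cells (3.27%) held 11 Npy UMIs, against 5.53% of Aire-stage cells. In Aire-stage cells of the same library (2767 thinned cells, median 10445.5 UMIs) the shares ran from 1.99% for Sst to 26.1% for Resp18, above the myeloid share for each member. Summed levels in myeloid and dendritic cells were 4.22% (Sst) to 33.8% (Resp18) of those in Aire-stage cells, and Aire stood at 34.6% there. In T-lineage cells the members stood at 0% to 5.44%, with Aire at 29.9%. In myeloid and dendritic cells 1 cell held 84.6% of the Ins2 UMIs and another 90% of those of Oxt. For the library labelled +/fl, summed levels in myeloid and dendritic cells were 3.55% (Sst) to 29.2% (Calca) of the Aire-stage level. Without thinning, 12 of those cells held at least 10 Calca UMIs each, with 145 in the highest, and 8 held at least 10 Resp18 UMIs. Ins2 was in 0.344% of thinned myeloid and dendritic cells against 0.323% of Aire-stage cells, so its share did not stand above theirs. The summed level of Ins2 was 0.234 CPM in them and 1.75 CPM in Aire-stage cells, where 35 of 39 UMIs came from 1 cell. The part of free RNA in these counts was not tested.

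Much of each level sat in few cells. Under the label +/fl, 157 of 208 Ins2 UMIs (75.5%) came from 1 cell and 203 of 265 Npy UMIs (76.6%) from another, and the 10 highest cells held 94.2% of Sst and 81.1% of Oxt. For the library labelled fl/fl, no member had more than 12.9% of its UMIs in 1 cell, and the 10 highest cells held between 9.22% (Resp18) and 51.3% (Npy). The median cell with a member held 1 or 2 UMIs of it in that library, against 53 to 442 UMIs in the highest cell. Each antigen was thus at 1 or 2 UMIs in the median cell that had it and in far higher numbers in a few.

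Cells with at least 10 UMIs of a member, called high cells, were therefore counted without thinning. The library labelled +/fl had 345 cells (7.05%) high for any member and the library labelled fl/fl 1128 (14.7%). Ins2-high cells numbered 2 and 53, Sst-high cells 3 and 43, Npy-high cells 2 and 41, and Crhbp-high cells 10 and 117. Oxt-high cells numbered 18 and 103, Nts-high cells 35 and 202, and Resp18-high cells 147 and 461. Calca again differed least, with 222 cells (4.54%) and 383 cells (4.99%), and the interval of that ratio (0.93 to 1.30) included 1. In the library labelled fl/fl, high cells were the smallest share for Crhbp, with 117 of 992 cells that had it. They were the largest share for Oxt, with 103 of 371 cells. They held 51.6% (Crhbp) to 90.3% (Oxt) of a member's UMIs in that library.

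**Figure D2:**
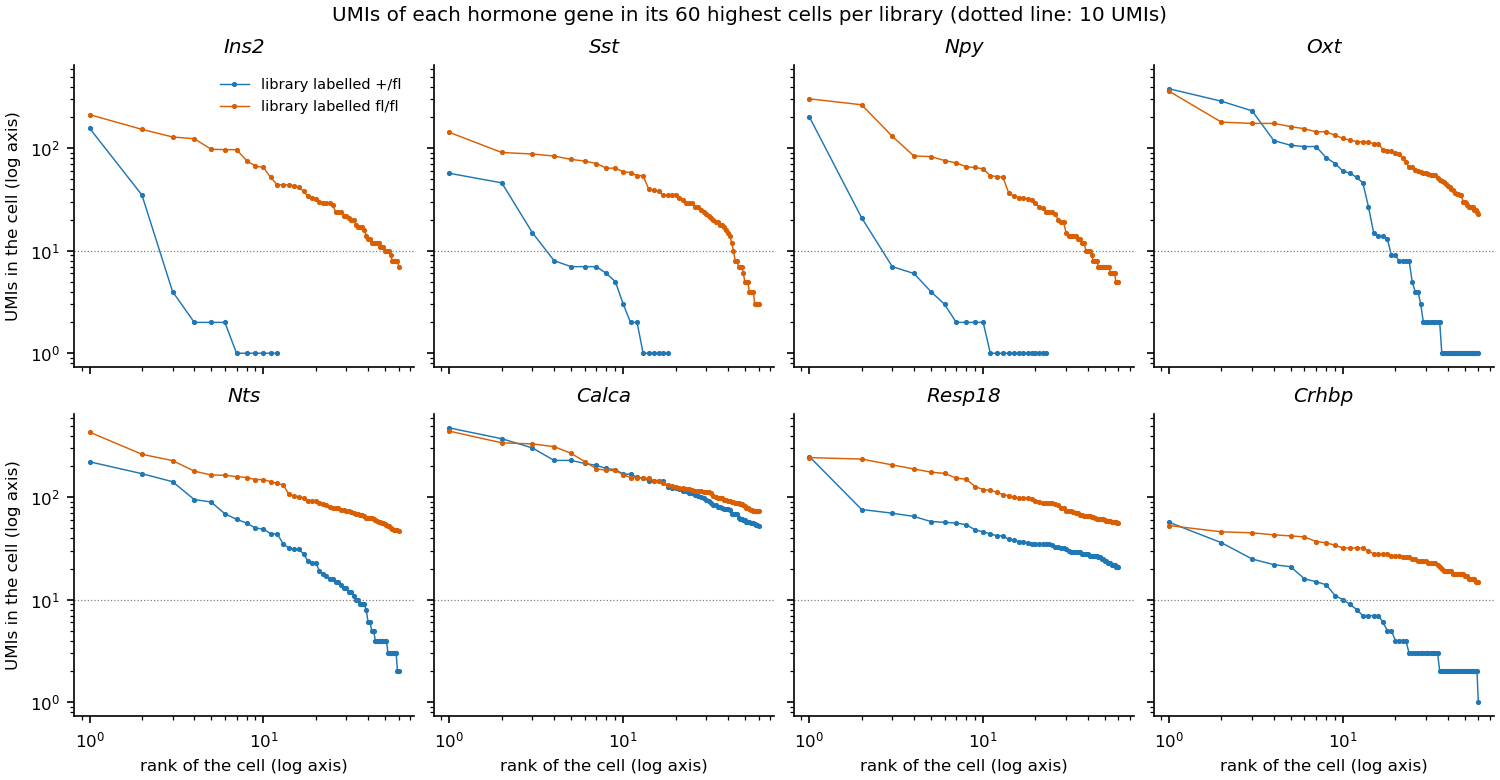
UMIs of each hormone gene in its 60 highest cells of each library against the rank of the cell, both on log axes, with a dotted line at 10 UMIs. The curves of Ins2, Sst and Npy in the library labelled +/fl cross 10 UMIs after 2 or 3 cells, while those of Calca lie close together in the 2 libraries.

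Some of the highest single cells are described here as examples. The Nts-highest cell held 432 Nts UMIs, 3.22% of all its UMIs, together with 124 Ins2 UMIs and 5 Aire UMIs. The Ins2-highest cell of the library labelled fl/fl held 213 Ins2, 159 Nts, 58 Resp18, 17 Calca, 1 Crhbp and 19 Aire UMIs, so 5 of the 8 members were read in 1 cell. The Npy-highest cell held 304 Npy, 31 Calca and 10 Crhbp UMIs with 12 Aire UMIs. All 3 were Aire-stage cells with 0 or 1 Chga UMIs. Other highest cells of that library differed. The Oxt-highest cell held 360 Oxt and 0 Aire UMIs, and the Resp18-highest 244 Resp18 and 1 Aire UMIs. The Crhbp-highest cell held 53 Crhbp and 22 Aire UMIs and no other member. In the library labelled +/fl, the Sst-highest cell held 57 Sst, 43 Calca and 0 Aire UMIs. The Ins2-highest cell of the library labelled +/fl was of another kind: it was neuroendocrine-like, with 157 Ins2, 250 Resp18 and 628 Chga UMIs and 0 Aire UMIs. It held 75.5% of that library's Ins2.

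The spread over cell classes was described next. The cells fell into 19 clusters, named by fixed marker lists, and a name means only that the cluster resembles the list. The name of 4 clusters was Aire-stage mTEC. Clusters 2, 4 and 6 met all 8 markers of that list and cluster 5, with 4922502D21Rik, Gpx6 and Nlrp3 among its 10 leading genes, met 6 of 8. Together they held 1046 cells, 21.4% of all, under the label +/fl and 3180 cells, 41.5%, under the label fl/fl. Cluster 5 held 923 of the 1046 cells but 51 of the 3180. Its name depended on the run. At clustering resolution 0.5 the cluster with Gpx6 and 4922502D21Rik among its leading genes was named Muscle. With markers left out of the clustering, a stricter cell filter or doublets kept, such a cluster was named Cycling. The Aire-stage class labelled +/fl then held 139, 83, 59 and 84 cells, in that order of runs. The neuroendocrine-like cluster met 10 of 11 markers and held 31 and 260 cells, too few in the library labelled +/fl to set the libraries beside each other. All 8 members were among the genes used for clustering, so levels by class are a description.

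In the library labelled fl/fl the Aire-stage cells held 71.9% (Resp18) to 93.8% (Ins2) of each member's UMIs. Under the label +/fl they held 73.7% to 93.6% for 7 members and 18.8% for Ins2, most of which lay in the 1 neuroendocrine-like cell above. For 7 of 8 members the level in Aire-stage cells of the library labelled fl/fl was 2-fold or more above that in neuroendocrine-like cells, where 23.4% of 16283 genes reached that ratio. Ins2 had 60.1 CPM (57.7 to 62.6) in Aire-stage and 0.846 CPM (0.102 to 3.06) in neuroendocrine-like cells. Sst had 45.1 and 0.846 CPM and Npy 53.3 and 1.69 CPM. Neuroendocrine-like cells of the library labelled fl/fl, with the granule gene Chga at 744 CPM, thus carried next to none of these 3 hormone genes. This did not hold for Ins2 in the library labelled +/fl, where 1 of 31 neuroendocrine-like cells held 157 of all 208 Ins2 UMIs.

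In the library labelled fl/fl, Resp18 ran the other way. It had 1229 CPM (1185 to 1274) in neuroendocrine-like cells and 345 CPM (339 to 351) in Aire-stage cells, and was found in 54.8% and 26.1% of thinned cells. In the 31 neuroendocrine-like cells of the library labelled +/fl it had 841 CPM, of which 74.9% came from 1 cell. Calca, Nts and Oxt had intermediate levels in neuroendocrine-like cells of the library labelled fl/fl, with 180, 57.1 and 53.3 CPM against 447, 223 and 122 CPM in Aire-stage cells. One cell held 65.2% of that Nts and another 51.6% of that Oxt. Crhbp had 7.19 and 92.6 CPM. With the members, Aire and all marker genes left out of the clustering, Oxt was instead lower in Aire-stage cells, with a log2 ratio of -0.94.

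The levels of other classes came in an order that differed by gene. Cycling cells of the library labelled fl/fl had 38.4 CPM of Crhbp (34.0 to 43.2), 135 CPM of Calca and 13.3 CPM of Sst, each above Immature mTECs with 9.12, 13.6 and 1.28 CPM. Enterocyte-hepatocyte-like cells had 76.9 CPM of Oxt (68.8 to 85.7), 23.4 CPM of Npy and 183 CPM of Resp18. Keratinocyte-like cells had 53.5 CPM of Oxt, of which 145 of 299 UMIs lay in 1 cell. The intervals of Oxt in keratinocyte-like and neuroendocrine-like cells overlap, as do those of Nts in enterocyte-hepatocyte-like (58.6 CPM) and neuroendocrine-like cells. The 62 enterocyte-hepatocyte-like cells labelled +/fl had 179 CPM of Nts, above the 62.4 CPM of Aire-stage cells, with 95 of 178 UMIs in 1 cell, and 4.02 CPM of Ins2 against 1.75 CPM, with all 4 UMIs in 1 cell.

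**Figure D3:**
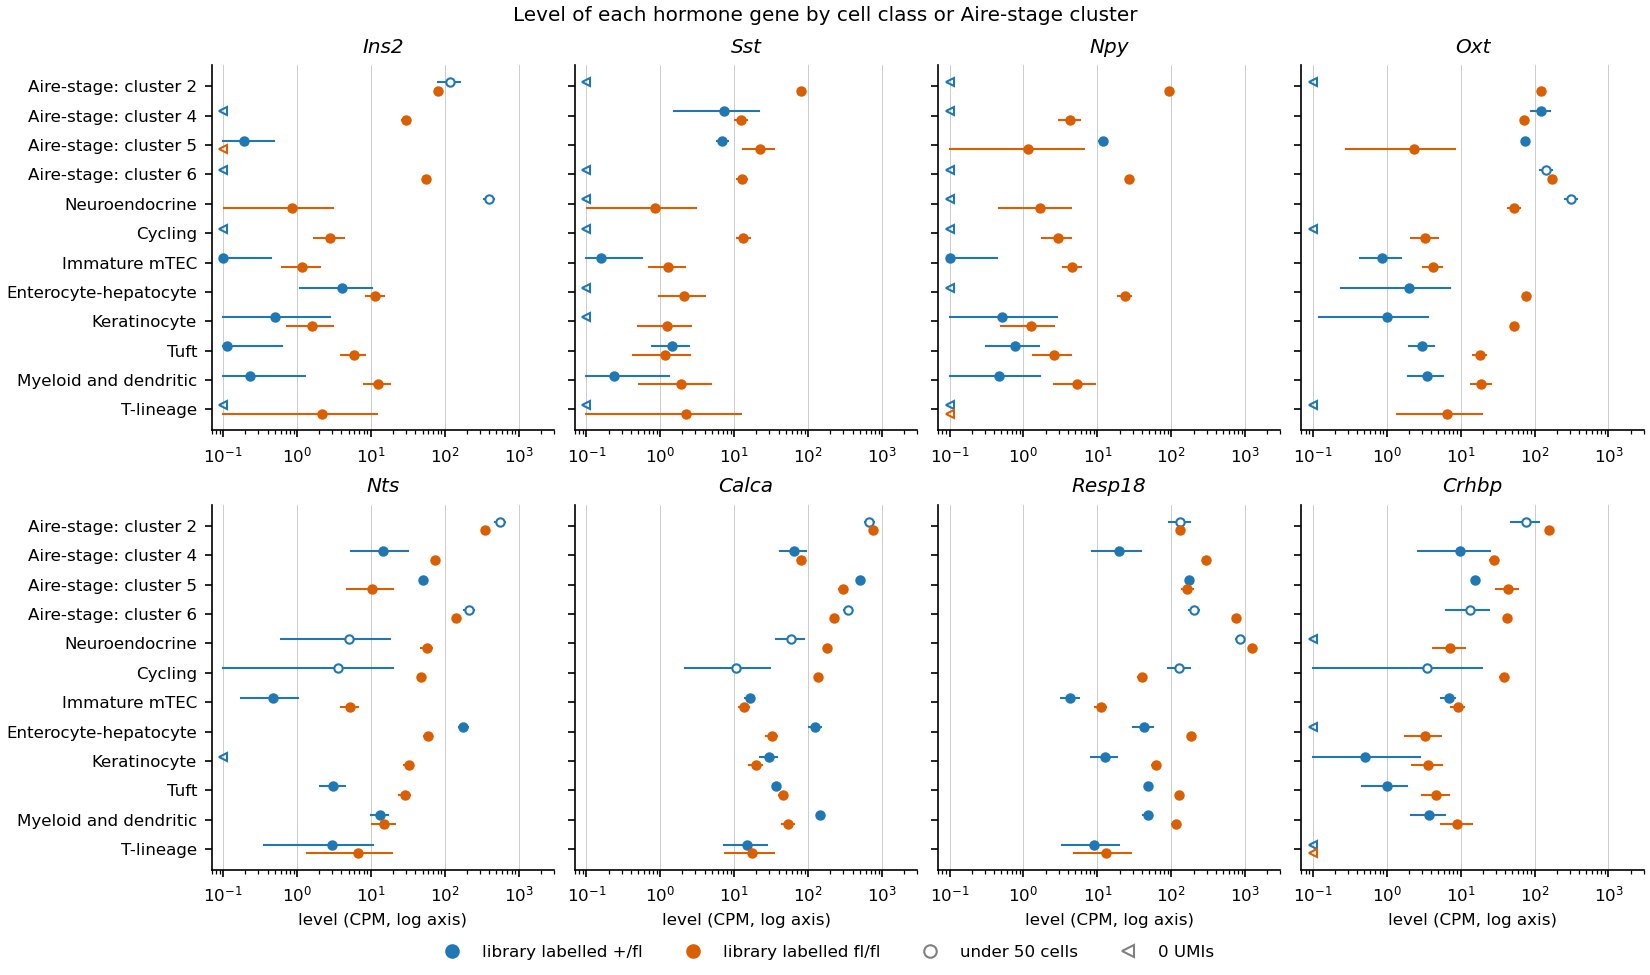
Level of each hormone gene (CPM, log axis, points under 0.1 drawn at 0.1) in the 4 Aire-stage clusters and 8 other classes of the library labelled +/fl (blue) and labelled fl/fl (orange), with 95% counting intervals; open circles mark groups under 50 cells and triangles 0 UMIs. Among cells labelled fl/fl, cluster 2 is highest for Sst, Npy and Calca, and neuroendocrine-like cells are highest for Resp18.

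Within the Aire-stage class the members did not share 1 cluster. Among cells labelled fl/fl, cluster 2 (1228 cells, 16.0% of the library) had the highest level of 6 members among its Aire-stage clusters. It held 78.5% of all Sst UMIs, 75.5% of Npy, 71.4% of Calca, 70.2% of Crhbp, 65.4% of Nts and 58.8% of Ins2. Sst stood at 81.0 CPM (77 to 85.2) there and at 12.5 to 22.1 CPM in the other 3 clusters. Crhbp stood at 156 CPM (150 to 161) and at 28.1 to 43.1 CPM elsewhere. Cluster 2 thus held the cells in which the 4 genes with the short promoter motif had their highest Aire-stage levels in this library, together with Npy and Ins2, of which Npy lacked the motif and Ins2 had no sequence. A link between motif and cluster was not tested.

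The kallikrein-led cluster 6 (809 cells) had the highest Aire-stage level of the other 2 members. Resp18 had 744 CPM (728 to 759) there against 131 CPM in cluster 2, and was found in 46.1% and 17.3% of thinned cells. Of 461 Resp18-high cells, 214 were in cluster 6, 61 in cluster 2 and 79 in the neuroendocrine-like cluster. Oxt had 170 CPM (162 to 177) in cluster 6 and 121 CPM in cluster 2, with 33 high cells in each. Of 43 Sst-high cells 33 were in cluster 2, as were 30 of 41 Npy-high, 93 of 117 Crhbp-high and 260 of 383 Calca-high cells. High cells were thus placed differently for Resp18 than for Sst, Npy, Crhbp and Calca.

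The comparison within Aire-stage cells asked whether the libraries differed beyond the size of the class. In the library labelled fl/fl, 7 of 8 members were higher and 6 of 8 by 2-fold or more, against 56.5% and 15.3% of 16952 genes. At 2-fold or more lower were 0 of 8 members and 3.38% of genes. Ins2 had 1.75 CPM (1.24 to 2.39) in the library labelled +/fl, where 35 of 39 UMIs came from 1 cell, and 60.1 CPM in that labelled fl/fl. Sst had 6.59 and 45.1 CPM, Npy 11.1 and 53.3 CPM and Crhbp 16.4 and 92.6 CPM. Nts had 62.4 and 223 CPM, Resp18 169 and 345 CPM and Oxt 76.7 and 122 CPM. Calca ran the other way, with 490 CPM (481 to 500) in cells labelled +/fl and 447 CPM (441 to 454) in those labelled fl/fl, a ratio of 0.912 (0.891 to 0.934). The median depth of these cells was 21524.5 and 10445.5 UMIs. Aire had 338 and 487 CPM in them and Fezf2, another regulator of antigen genes in mTECs, 553 and 494 CPM.

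These ratios set cluster 5 of one library against clusters 2, 4 and 6 of the other. Without cluster 5, the library labelled +/fl kept 25, 58 and 40 cells in clusters 2, 4 and 6, 5 members were 2-fold or more higher and 7 higher at all, against 15% and 55.1% of 16168 genes, and Nts had a log2 ratio of -0.02 in place of 1.82. With all cells that kept an Aire UMI after thinning taken instead of a class (726 and 2128 cells), 8 of 8 members were higher and 6 by 2-fold or more, against 52.2% and 13.6% of 15938 genes. Their log2 ratios ran from 0.13 for Calca to 5.17 for Sst, which had 2 UMIs in those cells of the library labelled +/fl. A cell filter of 1000 genes, 2000 UMIs and 10% mitochondrial UMIs kept 3435 cells of the library labelled +/fl. In that run 59 of them were named Aire-stage, and a cluster with Gpx6 among its leading genes, holding 687 of them, was named Cycling. In the Aire-stage cells of this run 3 members were 2-fold or more higher and 6 higher at all, against 19.2% and 56.9% of 15779 genes.

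Within cluster 5, the 51 cells of the library labelled fl/fl could be set beside the 923 of that labelled +/fl. Oxt had 74.6 CPM (70.9 to 78.4) under the label +/fl and 2.33 CPM (0.282 to 8.42) under the other, Nts 50.6 and 10.5 CPM and Calca 501 and 297 CPM. Crhbp had 15.7 and 43.1 CPM and Sst 6.91 and 22.1 CPM, all of the latter from 1 cell of the library labelled fl/fl. Resp18 was close in both, with 171 and 164 CPM. The direction in this cluster therefore differed by gene. In cluster 4 (58 and 1092 cells) Resp18 had 19.6 CPM (8.45 to 38.6) and 297 CPM (286 to 309), and Oxt 122 and 71.2 CPM.

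Whether the members meet in the same cell was asked from pairs. After thinning, 569 of 6872 cells of the library labelled fl/fl held at least 2 members, where independent shares give 417, a ratio of 1.36 (1.26 to 1.48). For the library labelled +/fl it was 146 cells against 47.4 expected, a ratio of 3.08 (2.61 to 3.61). Members thus met more often than their shares give over all cells. Within Aire-stage cells the ratio was 1.03 (0.945 to 1.11) for the library labelled fl/fl (501 cells against 489). It was 1.35 (1.14 to 1.58) in the library labelled +/fl, with 130 cells against 96.4. In Aire-stage cells of the library labelled fl/fl, 1569 of 2767 (56.7%) held at least 1 member, 87 held 3 and 13 held 4 or more.

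Single pairs departed from this in both directions. In Aire-stage cells of the library labelled fl/fl, Calca and Crhbp met in 106 cells against 59.4 expected, a ratio of 1.78, and Calca and Nts in 80 against 53.0. Sst and Calca met in 22 cells against 11.7, and Ins2 and Oxt in 9 against 3.98. Resp18 and Crhbp met in 54 against 73.0 expected and Calca and Resp18 in 132 against 153. Resp18 was below expectation with 5 of its 7 partners, and met Oxt in 42 cells against 32.6. The libraries differed for Calca and Resp18, which met in 86 cells against 60.6 expected, a ratio of 1.42, in Aire-stage cells of the library labelled +/fl. Among high cells, Calca and Crhbp were both high in 47 cells of the library labelled fl/fl and Ins2 and Nts in 11, where independent shares over all cells give 5.84 and 1.40. These counts were not thinned, and that expectation takes no account of class or depth. Of the Calca-high cells 332 of 383 were Aire-stage, as were 111 of 117 Crhbp-high cells. In all, 232 of the 1128 high cells of the library labelled fl/fl were high for 2 or more members, against 86 of 345 in that labelled +/fl.

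**Figure D4:**
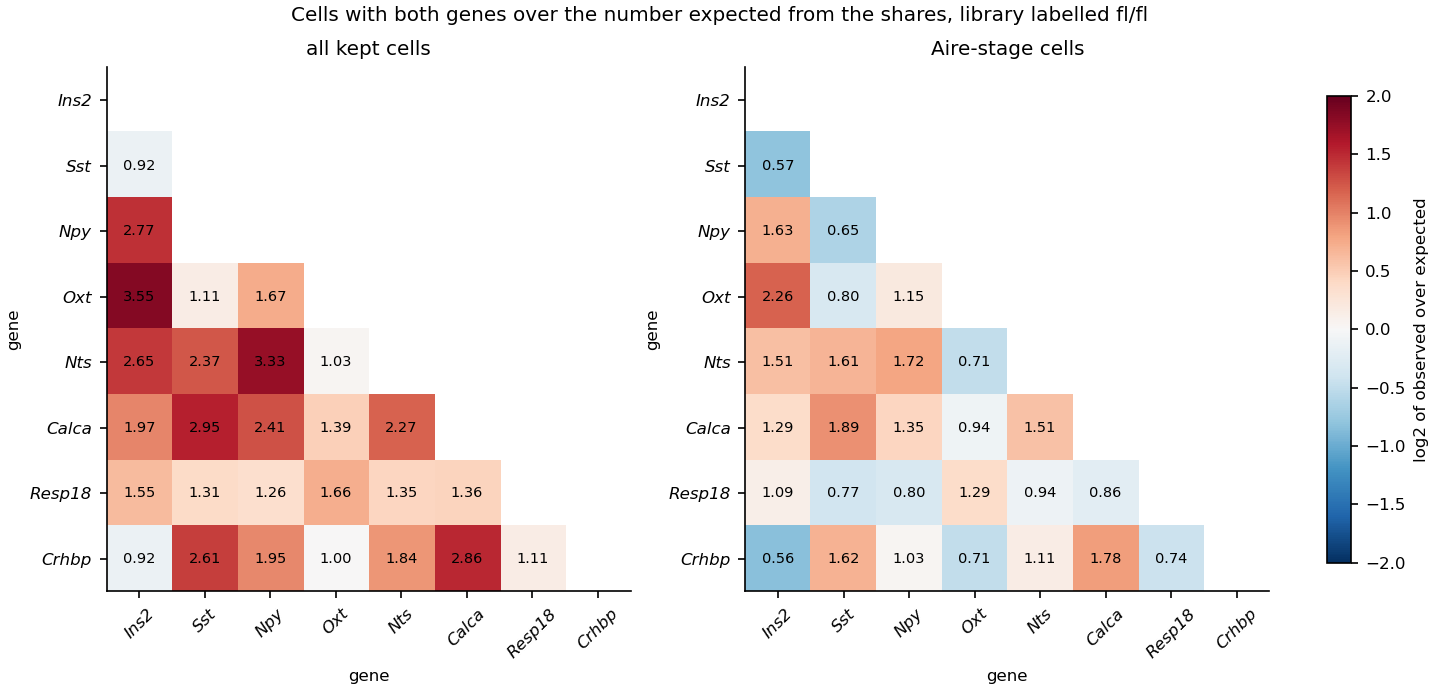
Number of thinned cells with both genes of a pair over the number expected from their shares, for cells labelled fl/fl, all kept ones (left) and Aire-stage ones (right), coloured by its log2, for pairs with at least 1 cell expected. Ratios are nearer to 1 or below it on the right, where Calca and Crhbp stand at 1.78 and Resp18 and Crhbp at 0.74.

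Co-detection with Aire was read within Aire-stage cells at 2000 UMIs per cell. An Aire UMI was found in 42.9% of 930 cells labelled +/fl and 49.5% of 2767 labelled fl/fl. Of the latter, Crhbp was in 14.2% (12.4 to 16.1) of 1370 cells with an Aire UMI and 6.16% (4.95 to 7.55) of 1397 cells without, a ratio of 2.30 (1.78 to 3.0). It was the 1 member of 8 at 2-fold or more, which 3.16% of 12481 genes reached. More frequent with Aire were 5 of 8 members, where 48.2% of genes were, so the members as a group stood near the background. Calca was in 25.5% and 17.0%, a ratio of 1.5 (1.26 to 1.77), and Sst in 2.34% and 1.65%, a ratio of 1.42 whose interval (0.805 to 2.54) included 1.

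For the other members an Aire UMI went with little or with fewer cells. Oxt had a ratio of 1.10, Npy 1.05, Nts 0.956 and Ins2 0.890, and all 4 intervals included 1. Resp18 was in 22.6% of cells with an Aire UMI and 29.4% without, a ratio of 0.769 (0.662 to 0.893). By the number of Aire UMIs, the share with Crhbp was 6.16% at 0, 11.4% at 1, 14.9% at 2 and 19.1% at 3 or more. Calca went from 17.0% to 23.8%, 26.4% and 28%, and Resp18 from 29.4% to 24.8%, 20.7% and 20.1%. Crhbp and Calca thus were more frequent, and Resp18 less frequent, in cells of this library with more Aire UMIs. Under the label +/fl no such order was seen for Calca and Resp18. Calca went from 30.3% to 28.9%, 35.2% and 26.9%, and Resp18 from 22.2% to 18.8%, 25% and 19.2%. Crhbp went from 1.51% to 2.09%, 4.63% and 1.92% there, in 19 cells in all, too few to tell an order.

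Cluster membership moves with these ratios. Within cluster 2 of the library labelled fl/fl the Crhbp ratio was 1.5 (1.09 to 2.08) and that of Calca 1.05 (0.851 to 1.30), while Nts was in 11% of cells with an Aire UMI and 16.7% without, a ratio of 0.659 (0.469 to 0.93). In that cluster 0 of 8 members and 2.65% of 9464 genes were 2-fold or more higher with Aire, and 4 of 8 members and 48.5% of genes were higher at all. Aire-stage cells labelled +/fl had Calca in 30.3% with and 30.3% without an Aire UMI, Nts in 4.51% and 3.01%, Resp18 in 20.6% and 22.2% and Oxt in 1.75% and 3.77%. All 4 intervals of those ratios included 1, and the other 4 members were in under 20 cells each. Of the 4 members in at least 20 cells, 0 were 2-fold or more higher with Aire and 2 were higher at all, against 1.05% and 47.9% of 8310 genes. Over all kept cells, classes without Aire enter the comparison. There 4 of 8 members in the library labelled fl/fl were 2-fold or more frequent with an Aire UMI, against 7.5% of 14939 genes, and 8 of 8 were more frequent at all, against 43.9%. Crhbp had a ratio of 4.22 (3.36 to 5.31), Sst 2.73, Calca 2.41 and Npy 2.23. For the other library, 4 of the 5 members in at least 20 cells were 2-fold or more frequent with Aire and 5 of 5 more frequent at all, against 5.26% and 43.6% of 12984 genes. High cells without thinning mostly had an Aire UMI: 78.1% (Resp18) to 97.4% (Crhbp) in the library labelled fl/fl, at median depths of 14603 to 21549 UMIs, where 75.8% of all Aire-stage cells had one at a median of 10445.5.

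**Figure D5:**
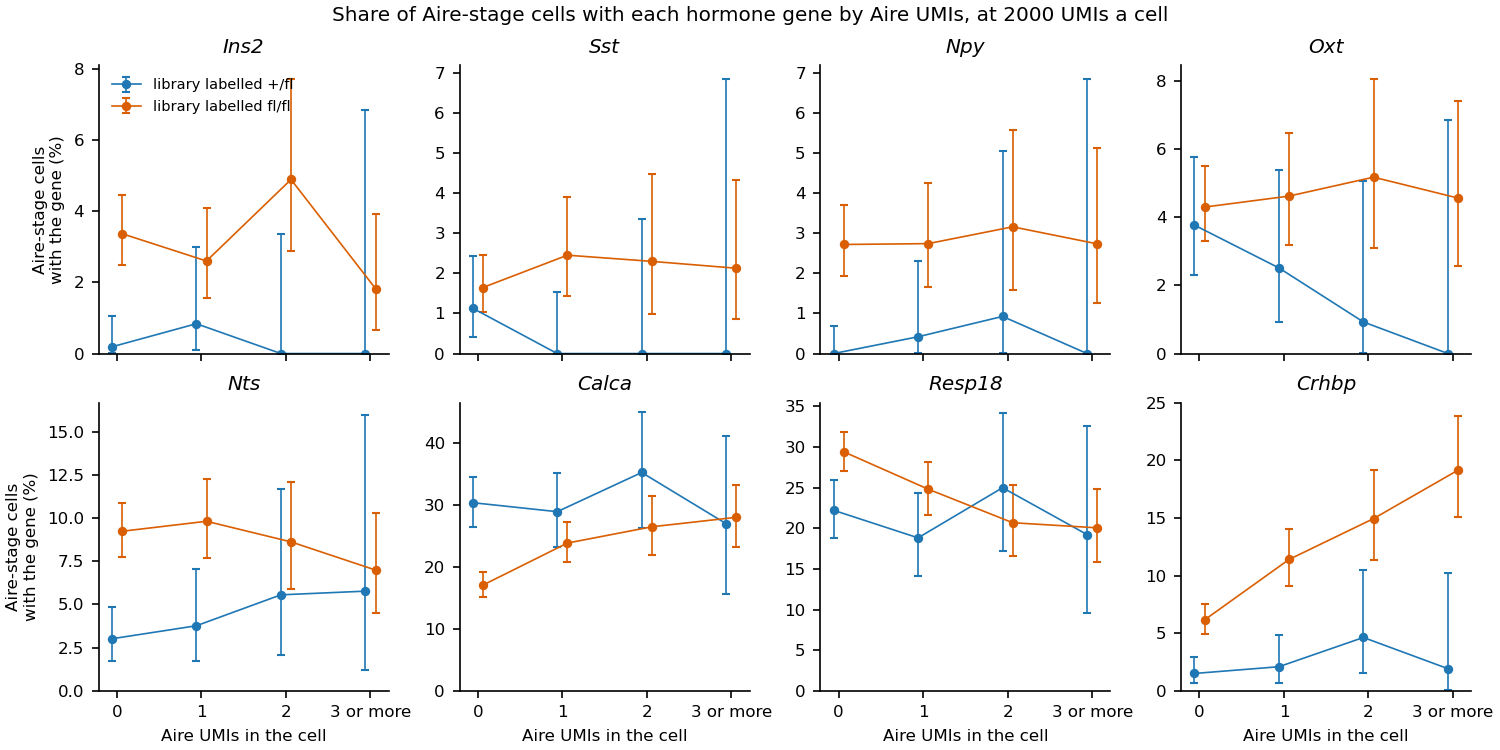
Share of Aire-stage cells with each hormone gene (percent, thinned to 2000 UMIs, 95% intervals) by the number of Aire UMIs in the cell, in the library labelled +/fl (blue) and labelled fl/fl (orange). The orange line of Crhbp goes from 6.16% at 0 to 19.1% at 3 or more Aire UMIs, and that of Resp18 from 29.4% to 20.1%.

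Other genes of the same pathway were described from a list of 30 further hormone and neuropeptide genes, also chosen with earlier results known. At least 50 UMIs were found for 29 of them. Of these, 22 were 2-fold or more higher in the library labelled fl/fl and 0 lower, against 10.2% and 2.43% of all genes, with a median log2 ratio of 1.81. Tac1, which encodes substance P, had 4.0 and 30.9 CPM, the parathyroid hormone gene Pth 2.55 and 18.9 CPM, and Pomc, the precursor of ACTH, 16.5 and 87.4 CPM. The glucagon gene Gcg had 4.0 and 18.2 CPM and the oxytocin neighbour Avp, for vasopressin, 11.4 and 51.3 CPM. Secretin (Sct) stood apart with 126 and 92.8 CPM. Iapp, the amylin gene that beta cells release with insulin, had 39.5 and 222 CPM, and in the library labelled fl/fl 446 CPM in neuroendocrine-like cells, where Ins2 had 0.846 CPM.

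Genes that process or store these peptides were next. Of 15, 7 were 2-fold or more higher in the library labelled fl/fl and 0 lower, against the same 10.2% and 2.43%, with a median log2 ratio of 0.53. The convertase gene Pcsk1 had 0.615 and 2.73 CPM, Pcsk2 1.29 and 5.24 CPM, and the granule gene Scg2 1.35 and 16.7 CPM. Carboxypeptidase E (Cpe), which trims the cut peptides, had 8.80 and 9.70 CPM, and the convertase Furin 29.0 and 21.5 CPM. In neuroendocrine-like cells of the library labelled fl/fl, Pcsk1 had 35.1 CPM and Scg2 262 CPM, against 2.80 and 13.1 CPM in Aire-stage cells. In that library Resp18 thus had its highest level in the same class as Pcsk1, Scg2 and Chga, and the other 7 members in Aire-stage clusters.

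The genes most like each member were found from levels over 28 combinations of cluster and library with at least 50 cells, which share libraries and depth. For Resp18 these were the kallikrein genes Klk1b9 (Pearson r = 0.89) and Klk1b4 (r = 0.87) and Chga (r = 0.86). For Sst they were Il4 (r = 0.91), Dppa3 and Krt9, for Calca Amdhd1 (r = 0.89), Tac2 and Crybb1, and for Crhbp Tnip2 (r = 0.88), Rgs17 and Ucma. For Ins2 they were Dcpp2 (r = 0.88), Mup20 and Lmx1a, for Npy Retnla (r = 0.85), Timd4 and Kcnmb3, for Oxt Ccl8 (r = 0.87), Ptgds and Ctrb1, and for Nts Nlrc4 (r = 0.88), Clps and Slc12a3. No member was among the 3 genes most like another. Between members r ran from 0.43 to 0.79, and with Aire it was highest for Sst (0.84) and Calca (0.81).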

How the data were processed

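Each library was deposited by the authors as raw UMI counts per gene and barcode, and the submitters' processing notes name Cell Ranger and Seurat. Matrix headers give software version 3.1.0; the genome build is not given in the sources used here. Cells with at least 500 genes, 1000 UMIs and at most 15% mitochondrial UMIs were kept. Scrublet (scanpy 1.11.5) marked 1 and 0 cells, so the highest doublet scores were removed at 0.8% per 1000 cells, 208 and 539 cells. Both libraries were clustered without integration (2000 variable genes, 30 components, 15 neighbours, Leiden resolution 1). A cluster took the name of the marker list with the highest mean log2 fold, with at least 3 markers met. There were 2 unnamed clusters. The leading genes of cluster 1 (1195 and 298 cells in the libraries labelled +/fl and fl/fl) held more markers of another class. Cluster 15 (139 and 14 cells) had markers of a non-epithelial class but Epcam as in epithelium, a rule set with the clusters known.

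UMIs were summed per library or class and given as CPM with exact Poisson intervals. Ratios of levels have exact conditional intervals, and shares of cells exact Clopper-Pearson intervals. Log2 ratios have 1 CPM added, and a call is a ratio of 2-fold or more. Members, lists and markers were chosen with earlier results of these data known. Named genes are the members, Aire, genes of 5 further lists and, per member, the 3 genes with the highest correlation over clusters. Simulated counts with 200 changed genes were tested: 95.4% of intervals held the true fold over 18392 genes. The simulated totals were drawn as Poisson counts, so coverage near 95% follows from how the intervals are made. UMIs gathered in few cells were not simulated, so this check does not bear on members with that pattern.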

Additional observations from a re-analysis of the deposited data

How the results depend on the processing

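No paired analysis was possible because each genotype is 1 library. Over all kept cells, the counts of members with a higher and a 2-fold higher level were 8 and 7 under each alternative run. Those for shares of cells were also 8 and 7, except 8 and 6 without thinning. TMM scaling (edgeR 4.0.16) moved the median of all genes by -0.09 over all kept cells and by -0.12 in Aire-stage cells, where Resp18 came to 0.89 and 5 members stayed at 2-fold. No member changed direction with it. The counts over all kept cells and those with TMM scaling are given without the share of all genes under the same runs. They are therefore not read as results about the members. In Aire-stage cells the stricter cell filter gave 3 members at 2-fold or more and an Nts log2 ratio of -0.35, and leaving out cluster 5 gave a log2 ratio of -0.016 for Nts. The Aire-stage class of the library labelled +/fl ran from 59 to 1046 cells over the clusterings, and results on that class in that library rest on this. Alternatives leaving out cluster 5, using cells with an Aire UMI, counting cells with 10 UMIs and leaving out Aire-stage cells were chosen after seeing the data.

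Cells with at least 2 members over expectation moved with depth. Over all kept cells of the library labelled +/fl the ratio was 2.28 at 5000 UMIs, 1.81 without thinning and 2.51 without Aire-stage cells. For the library labelled fl/fl it was 1.54 at 1000 UMIs, 1.2 at 5000 and 1.09 without thinning. In Aire-stage cells it was 0.940 without thinning in the library labelled fl/fl, and in that labelled +/fl 1.08 without thinning, 1.79 with doublets kept and 1.61 with members and markers left out of the clustering. Members more frequent with Aire in Aire-stage cells were recounted without the share of all genes under the same settings. These counts are therefore not read as results about the members. They numbered 8 without thinning and 3 at resolution 0.5 or with markers left out in the library labelled fl/fl. In the library labelled +/fl they numbered 4 without thinning, and 0 with doublets kept, the stricter filter, resolution 0.5 or markers left out. There the Aire ratio of Oxt was 1.77 at 5000 UMIs and 2.06 with doublets kept, that of Sst 3.05 at 1000 UMIs, and that of Ins2 0.749 without thinning, each from few cells. With members and markers left out of the clustering, Oxt had a log2 ratio of -0.94 between Aire-stage and neuroendocrine-like cells. Of the counts of members and ratios of co-detection recomputed under alternatives, 90 stayed within their interval or within 1.5 times and 19 did not. Of the values of single members, 192 stayed within their interval, 172 moved beyond it and 7 changed direction. The cause of these changes was not tested.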

Other observations

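Receptors of these peptides stood near the share of all genes. Of 18 receptor and partner genes, 13 had at least 50 UMIs, and 1 was 2-fold or more higher and 1 lower where both alleles are labelled floxed, against 10.2% and 2.43% of all genes, with a median log2 ratio of 0.21. The higher one was the calcitonin receptor Calcr, with 0.135 and 2.52 CPM in the libraries labelled +/fl and fl/fl. The lower one was Sort1, the sortilin gene whose product binds neurotensin, with 62.7 and 24.6 CPM. The insulin receptor Insr had 21.0 and 31.7 CPM, and the somatostatin receptor Sstr2 had 4.77 and 3.60 CPM.

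Transcription factors of endocrine cells showed 0 of 8 genes at 2-fold or more in either direction over all kept cells. Of all genes 10.2% were higher and 2.43% lower by that fold, and the median log2 ratio of the 8 was 0.20. In Aire-stage cells 1 of 7 was 2-fold or more higher and 2 lower, against 15.3% and 3.38% of genes. Insm1 had 86.0 and 148 CPM, and Pdx1, which drives insulin in beta cells, 4 and 44 UMIs in all, too few to be among the 8. Rest, the repressor of neuronal genes, had 45 and 33.0 CPM, and 4.23 CPM in neuroendocrine-like cells of the library labelled fl/fl.

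Of 3 listed regulators of mTEC antigen expression, Aire, Fezf2 and Ikzf1, 1 was 2-fold or more higher and 0 lower over all kept cells. In Aire-stage cells 0 were higher and 1 lower by that fold (Ikzf1, 105 and 44.9 CPM). The shares of all genes higher and lower were 10.2% and 2.43% over all kept cells, and 15.3% and 3.38% in Aire-stage cells.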
